A study of Mus musculus with 18 samples.

Results

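The transcripts of 10 cytokine genes of dendritic cells (DCs) were followed across 18 RNA libraries. They are Il12a, Il12b, Il23a, Il27 and Ebi3 of the interleukin-12 (IL-12) family, together with Il6, Il10, Tnf, Ifnb1 and Il15. The members were taken by gene symbol from the 29875 genes of the deposited count table, and all 10 were found and passed the filter on low counts. DCs are antigen-presenting cells that carry antigen to lymph nodes, guided by the chemokine CCL19.

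All groups held DCs grown from bone marrow of wild-type C57Bl6/J mice aged 8 to 12 weeks, in medium with a hybridoma supernatant containing granulocyte-macrophage colony-stimulating factor (GM-CSF). On day 8 the cells received 200 ng/ml lipopolysaccharide (LPS), a bacterial product that matures DCs, for 24 hours, so that every library, controls included, came from LPS-treated cells. They were then loaded into migration chambers within bovine collagen at 4.4, 3.5, 2.6 or 1.7 mg/ml, or into the same chambers with no collagen (suspension). RNA was taken 5 hours after a CCL19 gradient was set up. Each of the 4 collagen groups and 2 suspension groups had 3 replicates. The suspension groups are titled plus CCL19 and without CCL19, but titles and library names contradict each other on CCL19 in each replicate. Titles are used here only as names for these groups, and an effect of CCL19 was not read from them. All 4 collagen groups are titled as migrating towards CCL19, whereas by titles or by library names only part of the suspension libraries received it. Comparisons of collagen with both suspension groups therefore also differ partly in CCL19, and its part was not tested. Whether replicates came from separate mice is not stated in the labels, so p-values measure the spread between these libraries.

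IL-12 family cytokines are pairs of subunits. IL-12 joins the products of Il12a and Il12b, IL-23 those of Il23a and Il12b, and IL-27 those of Il27 and Ebi3, and the shared chains are commonly made in excess of their partners. LPS acts through Toll-like receptor 4, after which NF-kB, AP-1, C/EBP and interferon regulatory factors act on many cytokine promoters, and RNA-binding proteins set the decay of the messages. Tnf and Ifnb1 are typical early targets of LPS, whereas Il12b and Il6 are typical later ones. IL-15, which DCs present to T and natural killer cells on the IL-15 receptor alpha chain, is linked to interferon signalling.

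RefSeq promoter windows (build GRCm38.p6) were given for 6 of the 10 genes. Il15, Il27, Il23a and Il10 had no entry. The 250 bases before the start are shown for Il6 and Tnf, the members with a window whose level passed the test against suspension at some density without the block described below, and for Ebi3, the most abundant member. They are written 5′ to 3′ in the direction of transcription. Capitals mark matches, on either strand, to 4 motifs that did not overlap one another here. One is NF-kB. Another is AP-1, spelled TGANTCA. The next is C/EBP, spelled TTNNGCAA. The last is the box spelled TATAAA. The Il6 window is chr5:30012864-30013113 on the plus strand, the Tnf window chr17:35202008-35202257 on the minus strand, and the Ebi3 window chr17:55952373-55952622 on the plus strand.
Il6: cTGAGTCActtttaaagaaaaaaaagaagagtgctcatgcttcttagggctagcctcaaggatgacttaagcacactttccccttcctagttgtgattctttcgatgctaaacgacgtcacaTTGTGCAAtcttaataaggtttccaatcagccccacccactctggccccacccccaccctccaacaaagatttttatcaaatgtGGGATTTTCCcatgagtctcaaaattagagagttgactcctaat
Tnf: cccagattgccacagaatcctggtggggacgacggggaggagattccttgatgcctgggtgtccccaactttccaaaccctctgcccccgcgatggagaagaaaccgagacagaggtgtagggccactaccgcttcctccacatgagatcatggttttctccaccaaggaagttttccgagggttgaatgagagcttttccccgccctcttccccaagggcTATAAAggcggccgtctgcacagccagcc
Ebi3: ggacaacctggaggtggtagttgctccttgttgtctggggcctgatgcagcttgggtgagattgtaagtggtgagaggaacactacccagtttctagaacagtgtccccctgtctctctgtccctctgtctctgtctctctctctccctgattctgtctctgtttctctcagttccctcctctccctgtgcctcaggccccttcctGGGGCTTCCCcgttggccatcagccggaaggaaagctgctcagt
In both Il6 and Ebi3 the NF-kB match ran from -44 to -35 relative to the start. Il6 also held an AP-1 match from -249 to -243 and a C/EBP match from -128 to -121, and Tnf held a TATA match from -29 to -24. Among all 32851 windows in the table, cut to the same 250 bases, 3.9% held the NF-kB motif, 6.75% the AP-1 motif, 9.56% the C/EBP motif and 12.4% the TATA motif. Neither the Il12b nor the Il12a windows matched any of these motifs or the interferon-stimulated response element (GAAANNGAAA, in 2.98% of windows). The Ifnb1 window held an NF-kB match from -116 to -107 and TATA matches from -210 to -205 and from -82 to -77. A match describes letters only and says nothing of binding in these cells.

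Total counts ranged from 13062944 to 28059839 per library, and 13844 genes passed the filter. Counts were scaled to library size, as CPM, by edgeR's trimmed mean of M-values (TMM). Differences were tested with edgeR's quasi-likelihood test over all 18 libraries, with Benjamini-Hochberg adjustment over all genes tested and calls at a false discovery rate (FDR) of 0.1. The library names give 1 date and 1 sequencing lane for each replicate number, so each comparison was fitted again with that number as a block. All 10 DC markers, Itgax and Zbtb46 among them, were detected in every group. Their summed level was 15691 to 48443 CPM in suspension and 22536 to 52793 CPM in collagen. Of these 10, 0 were higher and 1 lower in collagen, and with the block 1 was higher and 1 lower. Of all genes tested, 7.78% were higher and 12.4% lower in collagen, and 15.6% and 19.3% with the block. Eosinophil markers, by contrast, summed to 118 to 1360 CPM in suspension and to 14.1 to 170 CPM in collagen, and 8 of the 8 eosinophil markers tested were lower in collagen. The eosinophil marker Il5ra was at 0 in all libraries at 1.7 and at 4.4 mg/ml. Neutrophil markers summed to 445 to 6220 CPM in suspension and to 812 to 3679 CPM in collagen, and 3 of 9 were lower in collagen. In replicate 1 their sum was instead higher in collagen, at 812 to 1133 CPM, against 445 and 448 CPM in suspension. Macrophage markers summed to 541 to 4631 CPM in suspension and to 716 to 5264 CPM in collagen, and 0 of 8 passed without the block but 4 were higher with it. These calls are for all collagen groups together against suspension. The part of such shifts in the comparisons with suspension below was not tested. Of 6 basophil and mast cell markers 0 passed, and 2 were lower with the block. T, B and natural killer cell markers summed to at most 11.4 CPM in any library, and fibroblast markers to at most 113 CPM, in 1 library at 2.6 mg/ml.

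The cytokine messages covered a wide range of levels. Divided by exon length and scaled to the same sum in each library (approximate TPM, transcript abundance per length), the mean in suspension was highest for Ebi3, at 449 ± 103 (SD, n = 6), followed by Il12b at 167 ± 107 and Il6 at 44.2 ± 31.4. Tnf at 22.9 ± 6.78 and Il15 at 22.6 ± 8.21 had nearly the same level in suspension. Il27 at 5.26 ± 5.86 and Il12a at 3.52 ± 3.43 also overlapped in their spread. Ifnb1 at 1.08, Il23a at 0.889 and Il10 at 0.737 approximate TPM lay close together near the detection floor. In collagen the order of the first 3 was kept, with means of 517 for Ebi3, 178 for Il12b and 110 for Il6 (n = 12), and Il15 at 48.2 ± 17.2 ranked above Tnf at 37.8 ± 36.6. The neighbours Ebi3 and Il12b did not overlap in suspension, where Il12b reached 276 and the lowest Ebi3 value was 319. Il12b and Il6 did overlap there.

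**Figure D1:**
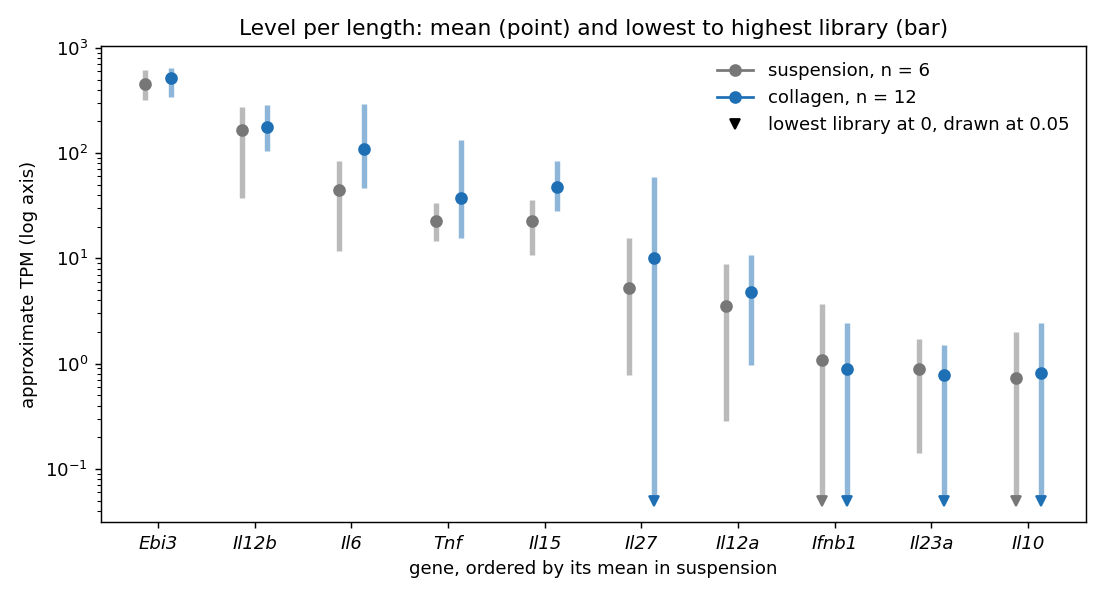
Approximate TPM (log axis) of the 10 cytokine genes, ordered by their mean in suspension. Points are means and bars run from the lowest to the highest library, in grey for 6 suspension and in blue for 12 collagen libraries; a triangle at 0.05 marks a lowest library at 0. Ebi3 (means 449 and 517) is highest in both, and Ifnb1, Il23a and Il10 lie near 1 or below.

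The shared subunits exceeded their partners throughout. Per exon length, Il12b was above both Il12a and Il23a in 18 of 18 libraries, and Ebi3 was above both Il27 and Il12a in 18 of 18. Among the 17 libraries with more than 3 counts of both genes, the level of Il12b was 20.0 to 214 times that of Il12a, with a median of 35.9. For Ebi3 over Il27 the median ratio was 244, also in 17 libraries, and the lowest ratio was 10.5, in a collagen library. The medians in suspension and collagen were 42.5 and 35.5 for Il12b over Il12a, and 198 and 245 for Ebi3 over Il27. Their ranges overlapped widely, and the ratios were not tested between groups.

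Il15 and Il6 were the members called in collagen against suspension. Without the block, 2 of the 10 genes passed for the mean of the 4 collagen groups against the mean of the 2 suspension groups, both higher in collagen, against a background of 20.2% of all genes called in either direction and 7.78% called higher. The count of 2 in 10 is no larger than the share in either direction. With the block, 4 passed, all higher, against 34.8% and 15.6%, and the additions were Tnf and Ebi3. The median log2 fold change of the 10 genes was 0.55, beside 0.0027 for all genes. In bulk RNA, fewer cells of a type and less RNA per cell cannot be told apart.

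Il15 showed the cleanest difference. Its level in suspension ran from 9.23 to 20.9 CPM, with a median of 17.3 (n = 6). It was 40.7, 27.5 and 25.0 CPM in replicates 1, 2 and 3 at 1.7 mg/ml and 40.9, 32.3 and 49.8 CPM at 2.6 mg/ml. It was 48.6, 26.4 and 33.9 CPM at 3.5 mg/ml and 54.8, 42.7 and 86.0 CPM at 4.4 mg/ml. All 12 collagen libraries lay above all 6 suspension libraries, which held for 0.506% of all genes tested (2.02% did not overlap in either direction), and the highest value was that of replicate 3 at 4.4 mg/ml. The log2 fold change over all collagen was 1.33 ± 0.23 (SE; adjusted p = 0.00205), and the differences within replicates 1, 2 and 3 were 1.502, 1.18 and 1.31. An exact two-sided permutation test over the 18564 arrangements of the libraries gave p = 5.39e-05, the smallest p it allows. This test exchanged libraries across replicate numbers and so ignored their shared date and lane. With libraries exchanged only within their replicate number, which leaves 3375 arrangements, the exact two-sided p was 2.96e-04, again the smallest. Both p-values follow from the lack of overlap given above and add nothing to it. Il15ra, the receptor chain that presents IL-15, did not pass (log2 fold change 0.05, adjusted p = 0.919), and its range was 12.2 to 28.7 CPM in suspension and 12.96 to 26.8 CPM in collagen.

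Il6, a pro-inflammatory cytokine that acts through the Il6st receptor chain, rose with more scatter. Suspension ran from 11.01 to 60.0 CPM, with a median of 29.4 (n = 6). The 3 replicates gave 76.0, 36.9 and 59.0 CPM at 1.7 mg/ml and 70.4, 57.6 and 166 CPM at 2.6 mg/ml. They gave 160, 48.7 and 74.3 CPM at 3.5 mg/ml and 284, 75.7 and 122 CPM at 4.4 mg/ml. The ranges overlapped at 1.7, 2.6 and 3.5 mg/ml and not at 4.4 mg/ml, and replicate 2 was the lowest of the 3 at every density. The log2 fold change over all collagen was 1.61 ± 0.41 (SE; adjusted p = 0.0154), with differences of 1.36, 1.17 and 2.40 within the replicates. The exact two-sided permutation test gave p = 0.00199, and within replicate numbers p = 0.00178. Without replicate 3, the call was lost in the fit without the block, at 1.29 (adjusted p = 0.153).

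**Figure D2:**
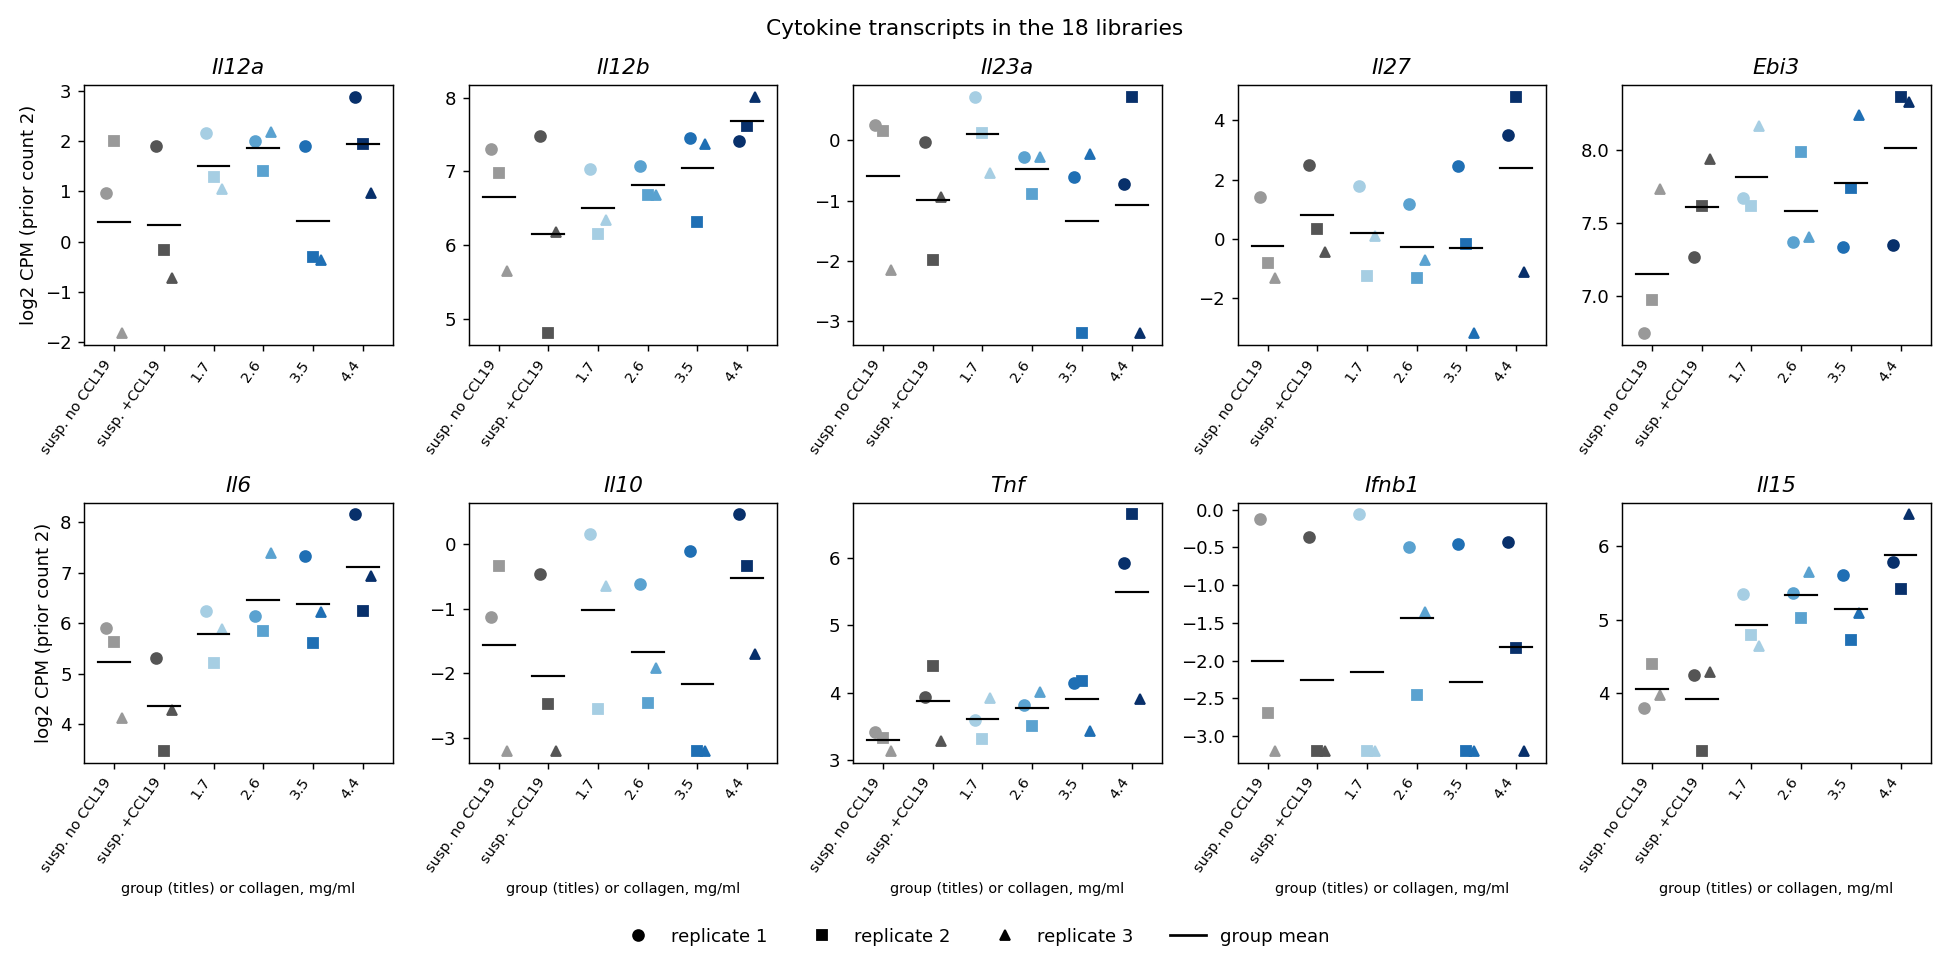
Level of each cytokine gene (log2 CPM with a prior count of 2) in the 6 groups, 1 panel per gene with its own axis. Symbols are libraries, with shape for the replicate, and bars are group means (n = 3). All 12 collagen libraries lie above suspension for Il15; in the Tnf panel replicates 1 and 2 at 4.4 mg/ml (60.5 and 99.6 CPM) stand far above replicate 3 (14.8 CPM).

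The densities were compared with suspension one by one. They share the 6 suspension libraries, so these comparisons are not independent. At 1.7 mg/ml none of the 10 genes passed, against 0.0361% of all genes, and with the block Il15 alone passed, at 0.92 ± 0.26 (SE; adjusted p = 0.0933), against 2.91% in either direction and 1.5% higher. At 2.6 mg/ml Il15 (1.33, adjusted p = 0.0293) and Il6 (1.64, adjusted p = 0.0841) passed, against 7.87% in either direction and 4.29% higher, and both passed with the block, against 21.6% and 12%. At 3.5 mg/ml Il15 passed (1.15, adjusted p = 0.0623), against 4.9% and 1.97%, and with the block Il6 did as well (1.49, adjusted p = 0.0167), against 18.4% and 8.03%. Without the block these calls were lost when a replicate was left out. Without replicate 2, and without replicate 3, 0 members passed at 2.6 mg/ml, where these fits called 0 and 4 of all genes. At 3.5 mg/ml 0 members passed without any 1 of the 3 replicates. Those fits called 3, 0 and 2 of all genes without replicates 1, 2 and 3. With the block 0 members passed at 3.5 mg/ml without replicate 1, where 198 of all genes were called.

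At 4.4 mg/ml 3 of the 10 genes passed and all were higher than in suspension, against 14.8% of all genes in either direction and 6.55% higher. They were Il15 at 1.90 ± 0.30 (SE; adjusted p = 0.0017), Il6 at 2.36 ± 0.51 (adjusted p = 0.00925) and Tnf at 2.26 ± 0.39 (adjusted p = 0.00296). With the block 6 passed, all higher, against 31.9% and 15.8%. The block added Il27, the p28 chain of IL-27, at 3.39 ± 0.85 (adjusted p = 0.00799), Il12b at 1.202 ± 0.36 (adjusted p = 0.0227) and Ebi3 at 0.65 ± 0.21 (adjusted p = 0.0354). Only Il6 and Il15 had all 3 libraries at 4.4 mg/ml above all 6 suspension libraries, as did 4.93% of all genes (14.2% did not overlap in either direction). Without replicate 2 and without the block, 1 of the 10 passed: Il6 was at 2.62 (adjusted p = 0.103) and Tnf at 1.81 (adjusted p = 0.16). In the blocked fit without replicate 2, 5 passed. Without replicate 1 and without the block, 5 passed as well. Of all genes these fits called 106, 2851 and 1615, in that order.

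**Figure D3:**
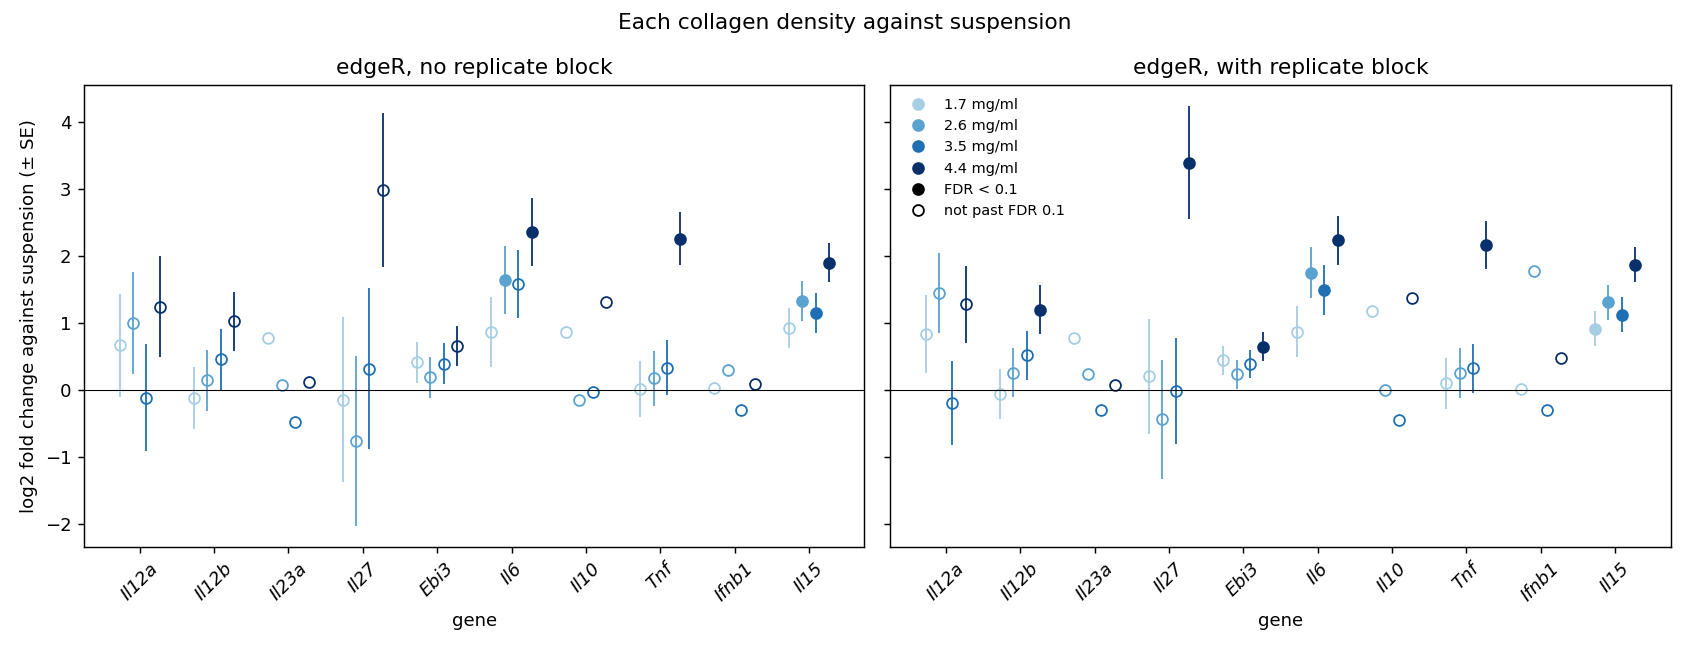
Log2 fold change of each cytokine gene at each of the 4 collagen densities against suspension, fitted with edgeR without (left) and with (right) the replicate block. Filled points passed an FDR of 0.1 and lines are ± SE, left out for the low-count genes Il23a, Il10 and Ifnb1. At 4.4 mg/ml 3 genes passed without the block and 6 with it.

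Tnf, an early inflammatory cytokine of LPS-treated cells, was highest in replicates 1 and 2 of the densest gel. Suspension ran from 8.69 to 21.0 CPM, with a median of 10.2 (n = 6). The replicates gave 12.0, 9.84 and 15.1 CPM at 1.7 mg/ml, 13.99, 11.3 and 15.99 CPM at 2.6 mg/ml and 17.5, 17.8 and 10.7 CPM at 3.5 mg/ml. At 4.4 mg/ml they gave 60.5, 99.6 and 14.8 CPM, the last of which lay inside the suspension range pooled over replicates and above the suspension libraries of its own replicate, at 9.59 and 8.69 CPM. The difference between 4.4 mg/ml and suspension was 2.25, 2.78 and 0.69 on the log2 scale in replicates 1, 2 and 3. Between 4.4 and 1.7 mg/ml it was 2.32, 3.33 and -0.02. Without the replicate 2 library at 4.4 mg/ml, Tnf still passed against suspension, at 1.63 (adjusted p = 0.0262).

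Il27 followed the same libraries. Suspension ran from 0.29 to 5.57 CPM, with a median of 0.883 (n = 6). The replicates gave 3.31, 0.31 and 0.95 CPM at 1.7 mg/ml, 2.16, 0.29 and 0.50 CPM at 2.6 mg/ml and 5.42, 0.77 and 0.00 CPM at 3.5 mg/ml. At 4.4 mg/ml they gave 11.4, 27.7 and 0.35 CPM, or 252, 325 and 7 counts. The difference between 4.4 mg/ml and suspension was 1.56, 5.05 and -0.24 within the replicates. Without the block the log2 fold change was 2.98 ± 1.14 and did not pass (adjusted p = 0.113).

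Il12b, the p40 chain of IL-12 and IL-23, was abundant and variable. Suspension ran from 27.9 to 178 CPM, with a median of 99.4 (n = 6). The replicates gave 131, 71.1 and 80.7 CPM at 1.7 mg/ml, 134, 103 and 102 CPM at 2.6 mg/ml, 175, 79.3 and 166 CPM at 3.5 mg/ml and 170, 196 and 258 CPM at 4.4 mg/ml. All 3 values at 4.4 mg/ml were above all 3 at 1.7 mg/ml, as they were for Il15 and for 4.53% of all genes (10.7% did not overlap in either direction). Suspension overlapped every density.

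Ebi3, the shared chain of IL-27 and IL-35, ran from 107 to 245 CPM in suspension, with a median of 175 (n = 6). In collagen it ran from 162 to 330 CPM, overlapping suspension at each density. The collagen difference was 0.43, 0.63 and 0.20 on the log2 scale in the 3 replicates, and over all collagen it was 0.42 (adjusted p = 0.231), or 0.43 with the block (adjusted p = 0.0497). For Tnf the same comparison gave 0.70 (adjusted p = 0.137), and 0.71 with the block (adjusted p = 0.0589). Il12b gave 0.38 (adjusted p = 0.491).

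The remaining members were low, and none passed in edgeR's fits over all libraries, with or without the block. Il12a, the p35 chain of IL-12, ran from 0.174 to 3.92 CPM in suspension and from 0.67 to 7.26 CPM in collagen, with a log2 fold change of 0.70 (adjusted p = 0.46). With DESeq2 and the block it passed for collagen, at 0.904 (adjusted p = 0.0829), and at 4.4 mg/ml, at 1.37 (adjusted p = 0.0608), and in the blocked edgeR fit without replicate 2 it passed in both. Il23a, the p19 chain of IL-23, held 0 to 28 counts per library, and Il10, an anti-inflammatory cytokine, also held 0 to 28. Ifnb1, the type I interferon of early LPS responses, held 9 to 21 counts in the 6 libraries of replicate 1, and 0 in 8 of the other 12. At these depths 3 counts correspond to 0.107 to 0.23 CPM, and no difference in these 3 genes between collagen and suspension was detectable.

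Across the collagen densities no member passed the linear trend without the block, against 0.00722% of all genes, or the comparison of 4.4 with 1.7 mg/ml, against 0.00722%. Of all genes, 997 and 1061 had an unadjusted p under 0.05 in these comparisons, and DESeq2 called Tnf in both. The slope of Tnf was 0.76 ± 0.17 per mg/ml (SE; adjusted p = 0.305). With the block it was 0.69 ± 0.16 (adjusted p = 0.0611) and Tnf was the 1 member that passed, against 1.45% of all genes in either direction and 0.802% higher. For 4.4 against 1.7 mg/ml with the block, Tnf was again the 1 member that passed, at 2.06 ± 0.45 (adjusted p = 0.044), against 1.73% and 1.12%. Tnf passed neither test in the blocked fit without replicate 1, nor without replicate 2. Of all genes, these fits called 0 and 0 for the trend and 15 and 0 for 4.4 against 1.7 mg/ml. Tnf passed neither without the single library of replicate 2 at 4.4 mg/ml, where the slope was 0.499 (adjusted p = 0.176) and the difference 1.47 (adjusted p = 0.162). With the block, leaving out that library left 45 and 43 of all genes called in the 2 tests. That library also stood apart in marker genes. Its macrophage markers summed to 4851 CPM, against 1462 to 2230 CPM in the other collagen libraries of replicate 2, and its neutrophil markers to 929 CPM, against 2653 to 3679 CPM. Its DC markers (43471 against 29290 to 35748 CPM), eosinophil markers (170 against 67.6 to 113 CPM) and basophil and mast cell markers (265 against 127 to 190 CPM) were also highest there. In replicate 1 at 4.4 mg/ml, also high in Tnf and Il27, macrophage markers were at 3548 CPM, against 4290 to 5264 CPM in its other collagen libraries. Neutrophil markers were at 812 CPM there, against 826 to 1133 CPM. The part of these markers in the Tnf and Il27 values was not tested. Replicate 3 had a Tnf slope of -0.0724 per mg/ml. Il6 and Il15 were higher at 4.4 than at 1.7 mg/ml by 1.49 (adjusted p = 0.565) and 0.98 (adjusted p = 0.482), and neither passed without the block. Of 16 alternative settings for this comparison, Il6 passed in 3 and Il15 in 1.

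Any difference among the 6 groups was called for Tnf (adjusted p = 0.0208) and Il15 (adjusted p = 0.0257), against 4.9% of all genes. With the block Il6 (adjusted p = 0.00564) and Il27 (adjusted p = 0.0413) were added, against 24.3%. Without the block, 1 member passed without replicate 1, 0 without replicate 2 and 0 without replicate 3. Of all genes these fits called 177, 0 and 0, so that no member could pass without replicate 2 or without replicate 3. Between the 2 suspension groups none of the 10 genes passed, and edgeR called 0 of all genes, although 855 had an unadjusted p under 0.05. DESeq2 also called 0, and with the block it called 194.

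The replicate number itself moved most members. In the blocked fit, 7 of the 10 genes differed between replicate numbers, a comparison chosen after their values were seen, against 48.3% of all genes. They were Il12a, Il12b, Il27, Ebi3, Il6, Il10 and Ifnb1. Ebi3 was higher in replicate 3 than in replicate 1, by 0.69 on the log2 scale, and the other 6 were lower in replicate 3. Il15 (adjusted p = 0.217) and Tnf (adjusted p = 0.327) did not pass.

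Several members moved together from library to library. After centring log2 CPM within the replicate number, Pearson's r over the 18 libraries was 0.86 for Tnf and Il27 and 0.86 for Il6 and Il15. It was 0.76 for Il12a with Il10, 0.75 for Il12a with Il6, 0.67 for Il12a with Il15, 0.70 for Il12b with Il6 and for Il12b with Il15, and 0.19 for Il27 with Il6. These are descriptions, as the libraries share groups, and the pair of Tnf and Il27 included the high values of replicates 1 and 2 at 4.4 mg/ml. Il10 held 0 to 28 counts per library and Il12a 3 to 161, so their r values rest partly on libraries near the detection floor. For the subunits of IL-12, IL-27 and IL-23, r was 0.55 for Il12a and Il12b, 0.36 for Il27 and Ebi3 and 0.20 for Il12b and Il23a.

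**Figure D4:**
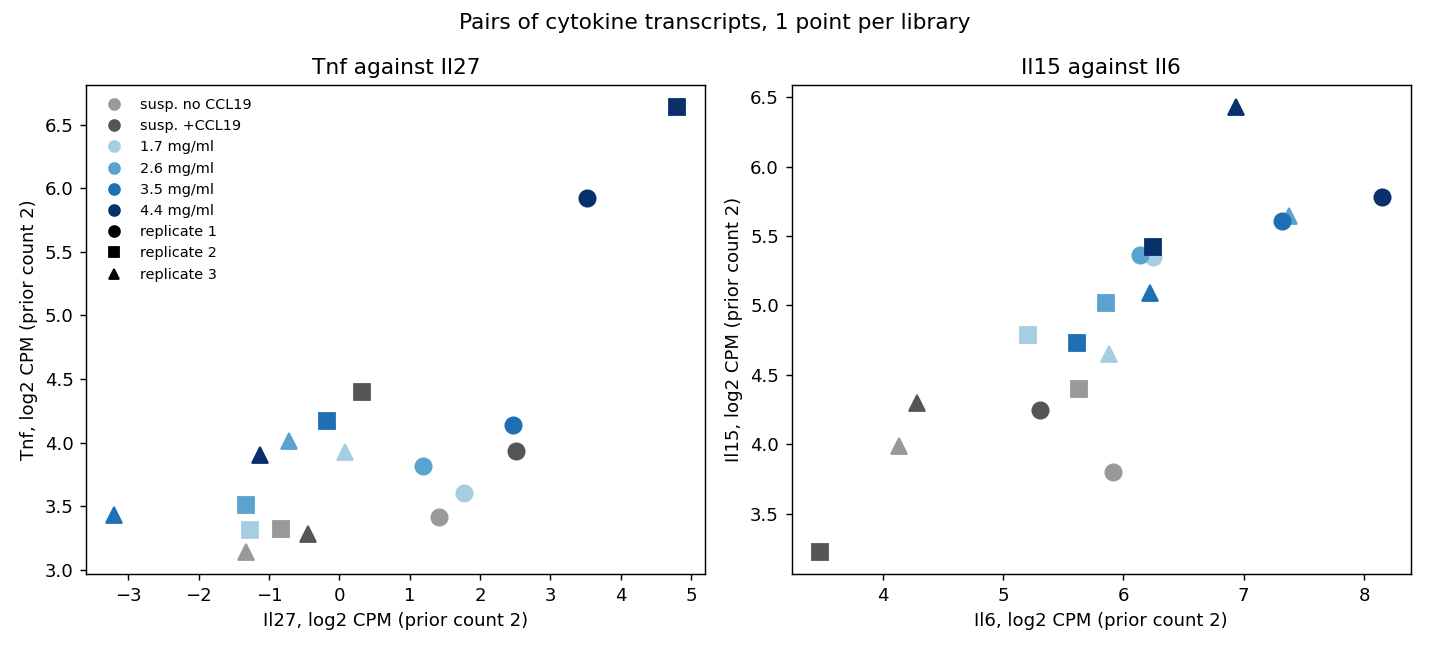
Log2 CPM of Tnf against Il27 (left) and of Il15 against Il6 (right), 1 point per library, coloured by group and shaped by replicate. On the left, replicates 1 and 2 at 4.4 mg/ml stand apart in both genes; on the right, the libraries spread along a band (centred r of 0.86 in each pair, n = 18).

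Among all genes tested, those most like Tnf by the same centred r were Cyp2u1 (0.95), a cytochrome P450 with at most 4.20 CPM, Hbegf (0.93), a growth factor of the EGF family, and Nr4a1 (0.91), an early-response nuclear receptor. Those most like Il15 were D030056L22Rik (0.96), Rab11fip1 (0.96), which acts in recycling endosomes, and 9130008F23Rik (0.95). Those most like Il6 were the splicing factors Rbm39 (0.99) and Sf3b1 (0.96), and Spag9 (0.96), a scaffold of JNK signalling. All were picked as the highest r among all genes tested, so high values follow partly from the choice. Without centring their r ran from 0.73 (Rab11fip1 with Il15) to 0.93 (D030056L22Rik with Il15). The r values with Tnf include its high values in replicates 1 and 2 at 4.4 mg/ml.

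Of 26 receptors and signal transducers, 25 were tested, of which 0 were higher and 2 lower for collagen against suspension, where 7.78% of all genes were higher and 12.4% lower. Their median log2 fold change was -0.05, beside 0.0027 for all genes. Tyk2, a kinase of the IL-12, IL-23 and type I interferon receptors, ran from 242 to 537 CPM in suspension and from 137 to 258 CPM in collagen, a fall of 1.01 ± 0.19 on the log2 scale (adjusted p = 0.003) seen in 3 of 3 replicates. The other was Il6ra, the ligand-binding chain of the IL-6 receptor, named after its values were seen. It was at -1.28 ± 0.29 (adjusted p = 0.0091), with the same sign in 2 of 3 replicates. With the block 3 were higher and 3 lower, where 15.6% of all genes were higher and 19.3% lower.

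Of 29 regulators of transcription and mRNA decay, all tested, 4 were higher and 4 lower in collagen, with a median of 0.12, against the same 7.78% and 12.4%. Nfkbiz, an NF-kB cofactor for secondary response genes such as Il6 and Il12b, ran from 5.27 to 22.5 CPM in suspension and from 13.03 to 81.4 CPM in collagen (1.32 ± 0.36, adjusted p = 0.0245). Rc3h1, an RNA-binding protein that promotes decay of inflammatory mRNAs, rose by 1.08 ± 0.26 (adjusted p = 0.0125), and Nfil3, a transcription factor, by 0.73 ± 0.25 (adjusted p = 0.0654). Arid5a, an RNA-binding protein known to stabilise Il6 mRNA, ran from 69.4 to 111 CPM in suspension and from 30.2 to 74.3 CPM in collagen (-0.98 ± 0.15, adjusted p = 9.83e-04). Irf1, an interferon regulatory factor, and Bcl3, an atypical NF-kB inhibitor, were lower at -0.61 (adjusted p = 0.0189) and -0.57 (adjusted p = 0.0961). The fourth in each direction, named after their values were seen, were the adaptor Myd88 at 0.65 and Irf3 at -0.46, and all 8 had the same sign in 3 of 3 replicates. With the block 9 were higher and 4 lower, against 15.6% and 19.3%.

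Of 19 related cytokines, 7 were tested and 1 was called, where 20.2% of all genes were called in either direction. Clcf1, an IL-6 family cytokine, was higher in collagen, from 0.696 to 10.2 CPM in suspension to 4.94 to 38.94 CPM in collagen (1.75 ± 0.52, adjusted p = 0.034), and the median of the 7 was 0.04. It did not pass without replicate 2. With the block 2 were higher and 1 lower, against 34.8% in either direction. For the linear density trend 0 genes of the 3 lists passed. With the block, 1 regulator was lower (Irf3) and 1 related cytokine higher (Il19), where 1.45% of all genes were called, both named after their values were seen.

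**Figure D5:**
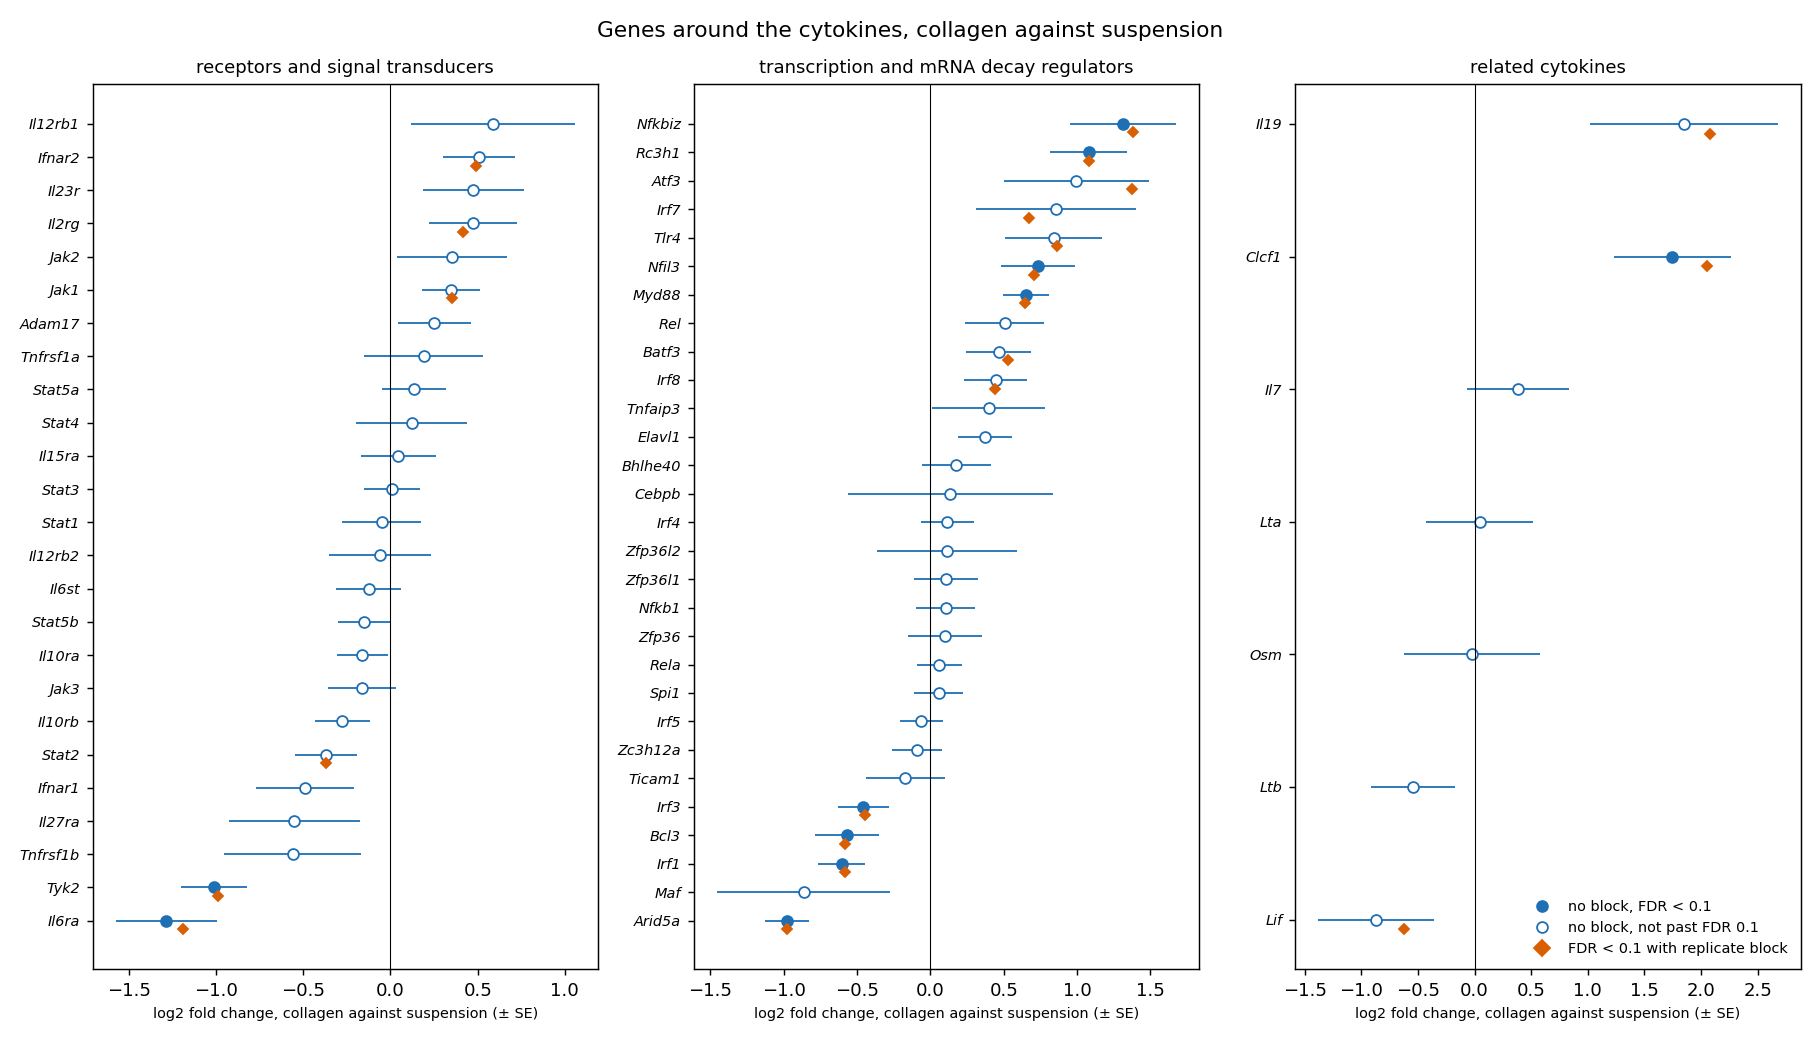
Log2 fold change, collagen against suspension, of the tested genes of the 3 lists, sorted within each list. Circles are fits without the block (± SE), filled at an FDR under 0.1, and diamonds mark genes that passed with the block. Nfkbiz (1.32) tops the regulators and Arid5a (-0.98) is lowest; Tyk2 and Il6ra are the filled receptors-list genes.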

How the data were processed

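For the 18 libraries the authors deposited raw, whole-number read counts by Ensembl gene ID. Libraries were stranded mRNA preparations read as 50-base single ends, and per the submitters' processing notes reads were aligned with STAR 2.7.0f to GRCm38. The study's methods name RSEM for TPM values, which were not used, and the tool behind the whole-number counts is not given in the sources used here. Symbols and exon lengths came from the GENCODE annotation of GRCm38, with which 29866 of 29875 genes matched.

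Counts were analysed in R 4.3.3 with edgeR 4.0.16 (filterByExpr, TMM, quasi-likelihood test, FDR 0.1), in 1 fit over all libraries, whereas the study's methods name DESeq2, run here (1.42.0) as an alternative. Each SE is the absolute log2 fold change divided by the square root of F, and log2 CPM had a prior count of 2. Deviations from group means correlated between libraries with the same replicate number with a mean r of 0.434 (45 pairs, -0.149 to 0.846). The shared date and lane make that number a block. The biological coefficient of variation was 49.0% without the block and 33.1% with it. No 2 of 153 library pairs were identical. Motifs were searched with regular expressions. The fit without the block was run on counts simulated with no effect of the replicate number. That run does not cover the replicate effect seen in these libraries.

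The 10 members were always named. From each list, up to 3 genes a direction were named that passed and had 1 sign in all 3 replicates, and for the 3 members with the smallest p for any difference, the 3 genes most alike. The members and lists were chosen with earlier results of these data known. Alternatives were DESeq2, its size factors, no low-count filter, an FDR of 0.05, only the compared groups, GC and length offsets, the block, and leaving out replicates; the block without replicate 2 at 4.4 mg/ml, and the permutation within replicate numbers, were chosen after seeing the data.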

Additional observations from a re-analysis of the deposited data

How the results depend on the processing

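Il15 passed in collagen against suspension under 15 of 15 alternatives (1.22 to 1.44) and at 4.4 mg/ml under 16 of 16. Il6 passed under 14 of 15 and 15 of 16, and Tnf at 4.4 mg/ml under 15 of 16. Other calls were less stable. In collagen Tnf and Ebi3 each passed under 5 of 15. At 4.4 mg/ml Il27 and Il12b each passed under 8 of 16, and Ebi3 under 4. For 4.4 against 1.7 mg/ml Tnf passed under 6 of 16, Il27 under 3 and Il12b under 1. For the trend Tnf passed under 6 of 16, Il27 under 3, Il6 under 2 and Il12b under 1. The cause of each change below was not tested.

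With the replicate number as a block, for which the shared date and lane give the pairing, the number of cytokine genes called was 4 for any difference and for collagen against suspension, 1 for the trend, for 4.4 against 1.7 mg/ml and for 1.7 mg/ml, 2 for 3.5 mg/ml and 6 for 4.4 mg/ml against suspension. The block called 6 receptors, 13 regulators and 3 related cytokines in collagen, and 1 regulator and 1 related cytokine for the trend. With DESeq2 and the block the cytokine counts were 7, 5, 4, 5, 1, 2 and 7 (any difference, collagen, trend, 4.4 against 1.7, then 1.7, 3.5 and 4.4 mg/ml against suspension), and the lists gave 7, 15 and 3 in collagen and 5 regulators and 1 related cytokine for the trend. Over all genes this setting called 5298, 5381, 811, 918, 1095, 3200 and 5023 in the same order. Without the block edgeR called 679, 2790, 1, 1, 5, 679 and 2054. GC and length offsets with the block gave 4, 4, 2 and 2 cytokine genes for the first 4 of these comparisons and 2 and 5 at 3.5 and 4.4 mg/ml, with 7, 16 and 2 list genes in collagen and 3 and 1 for the trend. Over all genes this fit called 2541 higher and 2560 lower in collagen, against 1077 and 1713 without either. It called 3769 for any difference, 631 for the trend and 859 for 4.4 against 1.7 mg/ml. At 3.5 and 4.4 mg/ml it called 2310 and 4785.

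DESeq2 without the block gave 1 cytokine gene for the trend and for 4.4 against 1.7 mg/ml, 2 at 3.5 mg/ml, 4 receptors and 2 related cytokines in collagen, and 2 regulators and 1 related cytokine for the trend. Over all genes it called 122 for the trend, 147 for 4.4 against 1.7 mg/ml, 1343 at 3.5 mg/ml and 3414 in collagen. Without the low-count filter the cytokine counts were 4 (any difference), 2 (trend), 3 (4.4 against 1.7), 2 (3.5 mg/ml) and 5 (4.4 mg/ml), with 3 related cytokines in collagen and 1 regulator for the trend. Over all genes that fit called 1993, 139, 151, 706 and 2384 in this order, and 2715 in collagen. An FDR of 0.05 left 1 cytokine gene at 2.6 mg/ml, 0 at 3.5 mg/ml and 5 regulators in collagen, and fitting only the groups compared gave 1 and 0 cytokine genes at those densities. Over all genes the FDR of 0.05 left 444, 220 and 1793, and fitting only the groups compared gave 262 and 329.

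Leaving out a replicate or a library, with and without the block, gave 0 to 5 cytokine genes for any difference, 1 to 4 for collagen, 0 to 2 for the trend and for 4.4 against 1.7 mg/ml, and 1 to 6, 0 to 2, 0 to 3 and 0 to 1 at 4.4, 3.5, 2.6 and 1.7 mg/ml. Over all genes it gave 0 to 3546 for any difference, 631 to 5401 for collagen, 0 to 181 for the trend and 0 to 173 for 4.4 against 1.7 mg/ml. At 4.4, 3.5, 2.6 and 1.7 mg/ml it gave 106 to 3600, 0 to 3165, 0 to 3663 and 0 to 760 of all genes. In collagen it gave 1 to 6 receptors, 3 to 12 regulators and 0 to 3 related cytokines, and 0 to 3 regulators for the trend. Without replicate 1, Il10 and Ifnb1 did not pass the filter and could not be fitted.

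Signs changed only in values that did not pass. In collagen, Ifnb1 was at -0.0101 with no filter and -0.0591 with offsets and block. The Il12a trend was -0.034 with the block, -0.0249 with DESeq2 and the block and -0.0784 with offsets and block, and the Il10 trend with offsets and block was -0.0405. At 4.4 mg/ml with offsets and block, Il23a was at -0.066 and Ifnb1 at -0.20. Leaving out replicates gave ranges of -0.26 to 0.59 for Il23a, -0.10 to 1.64 for Il10 and -0.0722 to 0.50 for Ifnb1 in collagen. For the trend they were -0.15 to 0.18 for Il12a, -0.27 to 0.46 for Il10 and -0.36 to 0.11 for Ifnb1. For 4.4 against 1.7 mg/ml they were -0.0763 to 0.50 for Ebi3, -0.69 to 1.301 for Il10 and -0.35 to 0.44 for Ifnb1, and for 4.4 mg/ml against suspension -1.64 to 0.95 for Il23a and -0.27 to 0.49 for Ifnb1.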
